A study of Mus musculus with 14 samples.

Results

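A set of 10 genes of branched-chain amino acid breakdown was followed here in subcutaneous white adipose tissue of running and sedentary mice. They were taken by name from the platform annotation of the arrays (Bcat1, Bcat2, Bckdha, Bckdhb, Dbt, Bckdk, Ivd, Hibch, Hibadh and Aldh6a1), and all 10 passed the filter on low signal, among 12945 genes tested. Each array gave a signal for each probe set, a group of short probes against 1 transcript, and a gene was read from its probe set with the highest mean over all 14 arrays. The mice were male C57BL/6 animals, an inbred laboratory strain, aged 12 weeks in both groups. The exercised group (7 arrays) lived in wheel cages over 11 days, and the sedentary group (7 arrays) was the control. Both groups are labelled 11 days, and no drug, diet or altered allele is named. Whether the arrays stand for separate mice is not stated. The p-values below therefore measure only how these samples vary, which may be technical, and the number of arrays limits the precision. The distance run is not given in the sources used here.

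Leucine, isoleucine and valine share the first steps of their breakdown. A transaminase moves the amino group away, in the cytosol (Bcat1) or in mitochondria (Bcat2), and the branched-chain ketoacid dehydrogenase complex then removes a carboxyl group in the committed step, which its kinase Bckdk switches off by phosphorylation. After that the routes part, and they end in acetyl-CoA, propionyl-CoA and, for leucine, acetoacetate. Adipocytes carry out this breakdown and can use its carbon for lipid synthesis, and brown fat takes up these amino acids as a fuel.

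Adipocyte markers gave signal on all 14 arrays, skeletal muscle markers were also strong on some, and some arrays stood apart. The mean signal of Adipoq, the adiponectin gene, was 57627 ± 7115 in sedentary tissue and 59745 ± 5241 after exercise (SD, n = 7 each). Sedentary array 5 had the lowest mean log2 level of 6 adipocyte markers (13.54, against 14.26 to 15.02 on the other sedentary arrays) and the highest of 7 macrophage markers (13.01, against 12.15 to 12.92). The macrophage markers were mixed there: Adgre1, Cd68, Cd14 and Itgam were the highest of the sedentary arrays and Cd163 the lowest (5616). Csf1r and Mrc1 lay within the range of the other sedentary arrays. The adipocyte markers other than Fabp4 were each lowest there among the sedentary arrays. Sedentary array 5 was also the lowest of all 14 arrays in 8 of the 10 enzymes, so values without it are given for each of the 10 enzymes. Skeletal muscle markers differed widely among arrays: the mean log2 level of 15 markers ran from 8.34 to 13.88 in sedentary and from 8.65 to 15.56 in exercised tissue, and the 15 log2 differences were above 0 throughout (median 2.87). Of these, 0 passed the test with limma, and 12 had an unadjusted p under 0.05, all higher. On exercised arrays 2, 3 and 6 the muscle marker mean (14.78, 15.46 and 15.56) lay above the adipocyte marker mean (14.34, 14.45 and 14.33). Of 7 brown and beige adipocyte markers tested, 5 rose, and their mean level ran from 8.58 to 11.95 in sedentary and from 11.91 to 13.84 in exercised tissue. The part of the brown and beige markers in the enzyme differences was not tested. The mean log2 level of 4 skin keratinocyte markers was 11.69 on exercised array 1 and 10.27 on exercised array 6. In sedentary tissue it ran from 8.23 to 9.12. Of these 4 markers, 0 passed the test with limma, and their part in the enzyme differences was not tested.

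Of the 10 enzymes 5 rose, namely the mitochondrial transaminase Bcat2, the dehydrogenase subunit Bckdha, the leucine enzyme Ivd and the valine enzymes Hibch and Hibadh, and 0 fell. Over all genes tested 4% rose and 1.53% fell, 5.53% in all (limma, adjusted p under 0.05). At an unadjusted p under 0.05 there were 9 enzymes higher and 0 lower, against 11.3% of all genes higher. Differences were above 0 in 9 of 10 enzymes and in 45% of all genes, and the median log2 difference was 0.50 over the 10 enzymes and -0.03 over all genes. In 4 enzymes each of the 7 exercised arrays lay above each of the 7 sedentary arrays, which held for 1.95% of all genes. Leaving out 1 array moved the count of 5 to 6 without sedentary array 5 (median 0.35), to 3 without sedentary array 1, 3 or 4 or exercised array 1, to 2 without exercised array 3 or 5, and to 1 without exercised array 7. In tissue pieces such as these, a change in the number of cells of 1 type and a change in RNA per cell cannot be told apart.

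**Figure D1:**
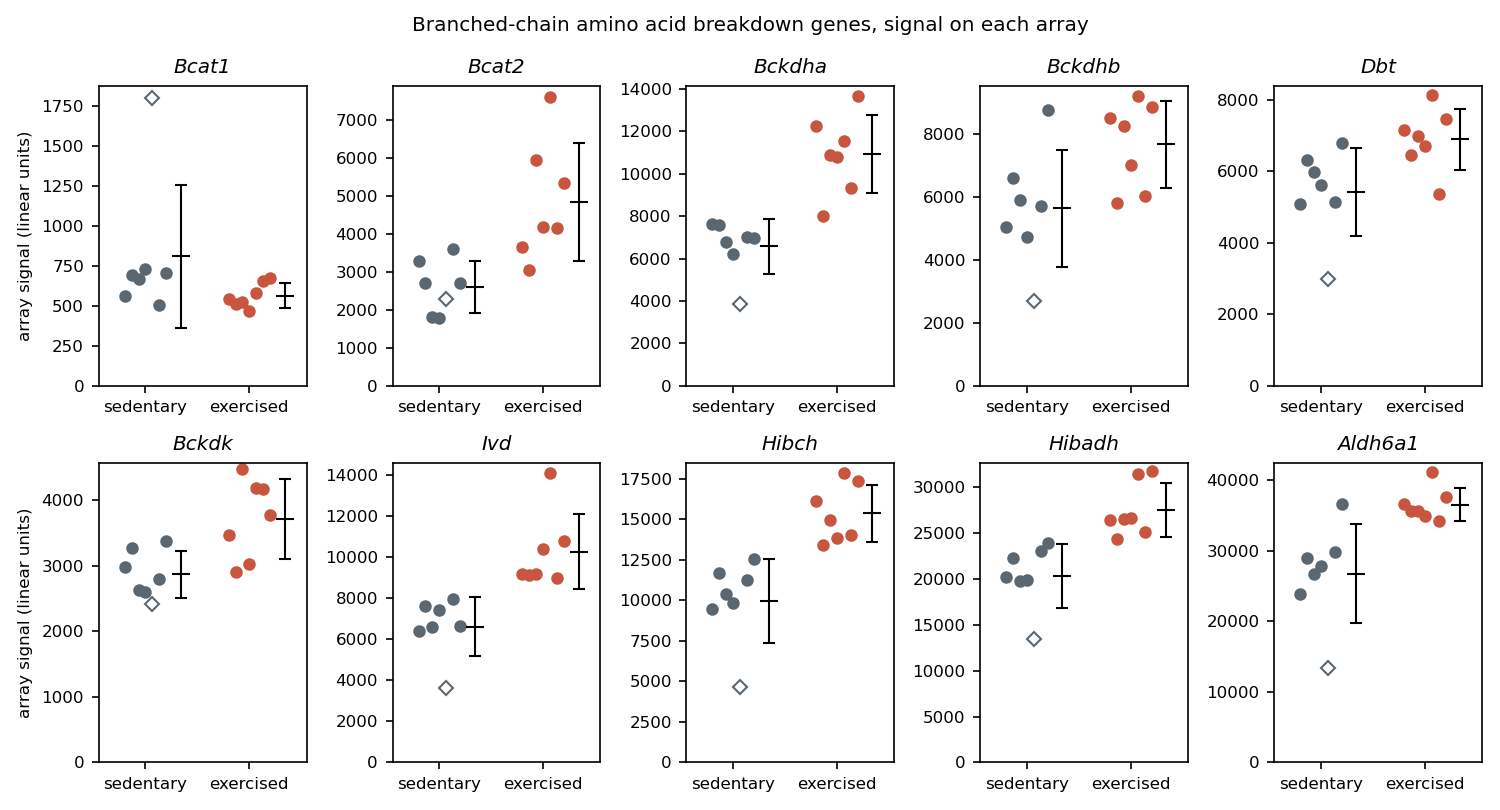
Array signal (linear units, each vertical axis starting at 0) of the 10 enzymes on 7 sedentary and 7 exercised arrays; points are arrays, the open diamond is sedentary array 5, and the bars give the mean ± SD. The exercised points of Bckdha, Ivd, Hibch and Hibadh lie above all sedentary points, and Bcat1 is the gene whose mean is lower in exercised tissue.

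Of the transaminases, Bcat2 rose and Bcat1 did not pass the test. Bcat2, the mitochondrial form, had signals of 1791 (lowest), 2710 (median) and 3599 (highest) in sedentary tissue and 3050, 4187 and 7599 in exercised tissue. Exercised arrays 3, 5 and 7 were highest, and exercised array 2, below sedentary arrays 1 and 6, was the 1 exercised array within the sedentary range. The means were 2597 ± 692 and 4843 ± 1558 (SD, n = 7 each), and Bcat2 rose 1.83-fold, a log2 difference of 0.87 (SE 0.20, adjusted p = 0.0222). This was the largest difference among the 10 enzymes, and it was 0.85 (SE 0.21, adjusted p = 0.0328) without sedentary array 5. Leaving out exercised array 3 or 7 ended the call (log2 differences 0.81 and 0.84, adjusted p from 0.0515 to 0.0523).

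Bcat1, the cytosolic form, had signals of 506.3, 692.8 and 1806 (lowest, median, highest) in sedentary and 467.6, 542.8 and 673.1 in exercised tissue. The value of 1806 came from sedentary array 5, and the other 6 sedentary arrays overlapped the exercised ones. The log2 difference was -0.38 (SE 0.21, adjusted p = 0.312, 95% interval -0.83 to 0.07), and without sedentary array 5 it was -0.18 (SE 0.12, adjusted p = 0.44). A further probe set of the gene differed by 0.05 (SE 0.13, adjusted p = 0.87), and the third lay under the filter. On the further probe set sedentary array 5 was the lowest sedentary array (463.2, against 487.6 to 786.6). On the third it was the highest (1057.4). Within each array, the log2 ratio of Bcat2 to Bcat1 was 1.70 ± 0.80 in sedentary and 2.95 ± 0.42 in exercised tissue, and 4 of 7 exercised arrays lay above the highest sedentary one.

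The dehydrogenase complex has a decarboxylase made of Bckdha and Bckdhb, a transacylase core, Dbt, and Dld, which it shares with pyruvate dehydrogenase and other complexes. Bckdha, the alpha subunit that carries the regulatory phosphorylation sites, had signals of 3843, 6976 and 7611 in sedentary and 8005, 10880 and 13640 in exercised tissue (lowest, median, highest). The groups did not overlap, with sedentary array 5 far below the other sedentary arrays. Bckdha rose 1.67-fold (log2 difference 0.74, SE 0.15, adjusted p = 0.0104), and it passed the test in all 14 fits with 1 array left out (0.61 to 0.81). Without sedentary array 5 the difference was 0.61 (SE 0.11, adjusted p = 0.00425).

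Bckdhb and Dbt did not pass the test. Bckdhb, the beta subunit, had signals of 2685, 5712 and 8739 in sedentary and 5808, 8231 and 9184 in exercised tissue. Sedentary array 7 had a value as high as the upper exercised arrays, and the groups overlapped. The log2 difference of Bckdhb was 0.49 (SE 0.20, adjusted p = 0.167, 95% interval 0.07 to 0.92), and 0.33 (SE 0.15, adjusted p = 0.222) without sedentary array 5. Dbt, the core subunit, had signals of 2999, 5610 and 6800 in sedentary and 5358, 6975 and 8124 in exercised tissue, a log2 difference of 0.37 (SE 0.15, adjusted p = 0.165, interval 0.05 to 0.69). The groups overlapped for Dbt, with exercised array 6 lowest of the exercised arrays. Its difference was 0.24 (SE 0.10, adjusted p = 0.177) without sedentary array 5. The shared subunit Dld rose 1.71-fold (log2 difference 0.77, SE 0.14, adjusted p = 0.00651), from 8545 ± 1544 to 14635 ± 2724 (SD, n = 7 each), with no overlap between groups, and its log2 difference without sedentary array 5 was 0.67 (SE 0.11, adjusted p = 0.00404).

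The kinase and the phosphatase that switch the complex did not pass the test. Bckdk, the kinase, had signals of 2414, 2801 and 3387 in sedentary and 2901, 3772 and 4476 in exercised tissue. The 2 lowest exercised arrays, 2 and 4, lay within the sedentary range, and arrays 3, 5 and 6 were highest. The log2 difference was 0.36 (SE 0.11, adjusted p = 0.0721, interval 0.12 to 0.59), and 0.32 (SE 0.11, adjusted p = 0.112) without sedentary array 5. Another probe set of Bckdk differed by 0.67 (SE 0.20, adjusted p = 0.0844). The mean of both probe sets passed (0.51, adjusted p = 0.0376), as did the main probe set without exercised array 2 (0.42, adjusted p = 0.0374) or 4 (0.40, adjusted p = 0.0492) or without sedentary array 7 (0.40, adjusted p = 0.0469). Ppm1k, the phosphatase that reactivates the complex, differed by 0.16 (SE 0.10, adjusted p = 0.331, interval -0.04 to 0.37). Within arrays, the log2 ratio of Bckdha to Bckdk was 1.16 ± 0.25 (SD, n = 7) in sedentary and 1.54 ± 0.28 in exercised tissue, with 5 of 7 exercised arrays above the highest sedentary one, and the ratio of Bckdha to Dbt moved from 0.29 ± 0.19 to 0.65 ± 0.19. The ratio of Dbt to Bckdk was 0.88 ± 0.29 in sedentary and 0.89 ± 0.29 in exercised tissue. Messenger RNA does not show how far the complex is phosphorylated, which was not measured here.

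**Figure D2:**
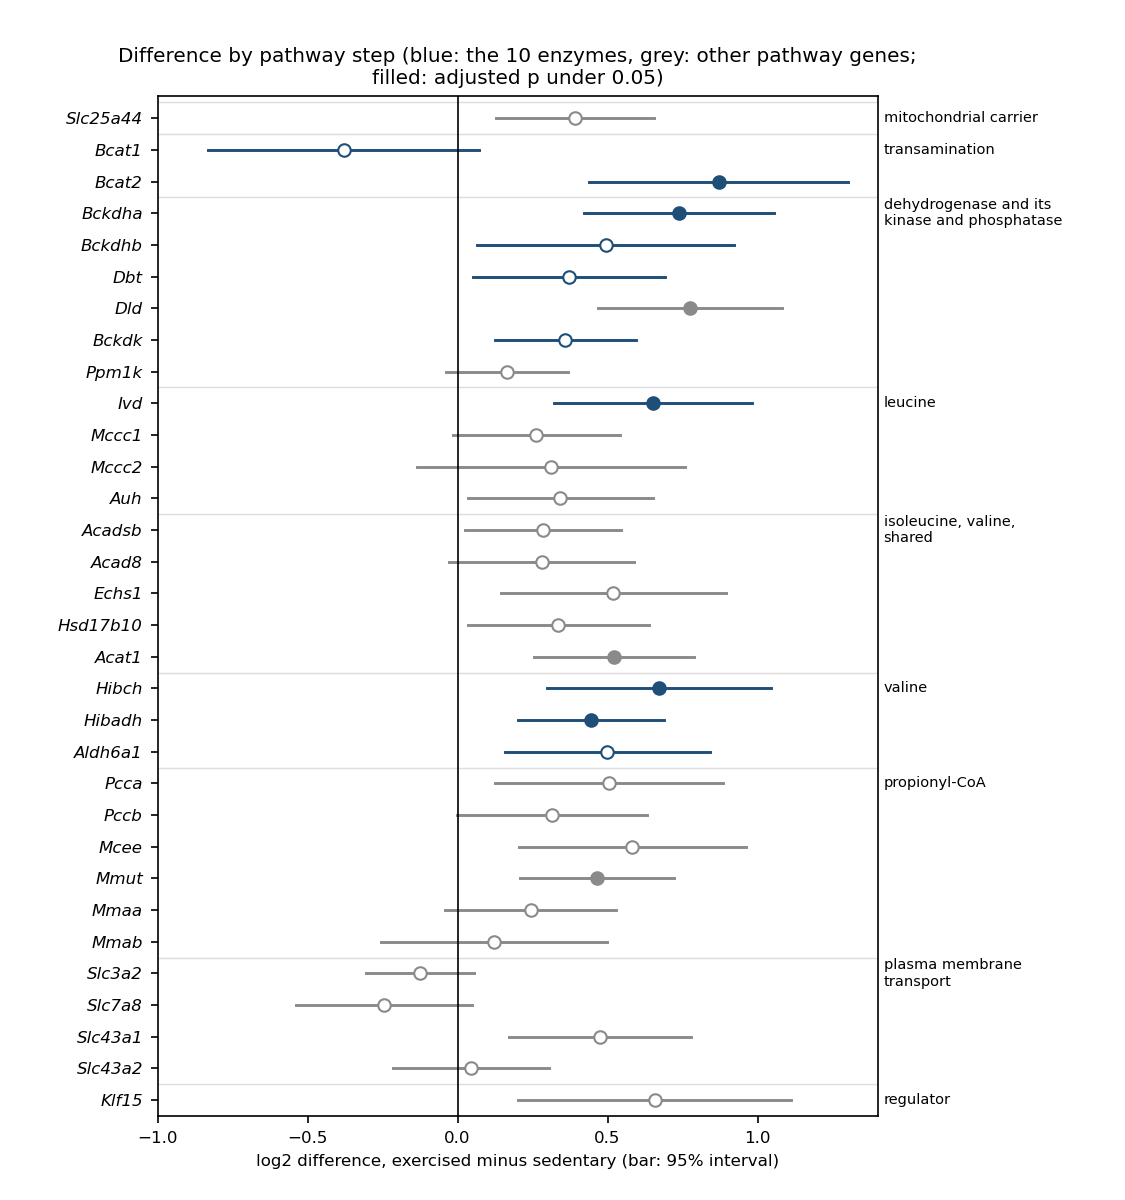
Log2 difference (exercised minus sedentary, horizontal axis) with its 95% interval for the 10 enzymes (blue) and 22 other genes of the pathway (grey), ordered by step; filled points passed an adjusted p of 0.05. Most genes lie to the right of 0, the largest being Bcat2 at 0.87, while Bcat1 and 2 transporter genes lie to the left.

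In the leucine branch, Ivd, which oxidises isovaleryl-CoA in the third step, had signals of 3649, 6632 and 7986 in sedentary and 8993, 9208 and 14098 in exercised tissue. All exercised arrays lay above all sedentary ones on the main probe set, and exercised array 5 stood above the other 6. Ivd rose 1.57-fold (log2 difference 0.65, SE 0.16, adjusted p = 0.0249), and without sedentary array 5 by 0.51 (SE 0.10, adjusted p = 0.00939). Leaving out exercised array 5 or 7 ended the call (0.57 and 0.64, adjusted p from 0.0528 to 0.0556). Another probe set of Ivd, with a similar mean signal of 7872, differed by only 0.19 (SE 0.13, adjusted p = 0.449), and the mean of both probe sets did not pass (0.42, adjusted p = 0.0867).

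Of the 3 valine enzymes among the 10, Hibch and Hibadh rose and Aldh6a1 did not pass the test. Hibch, which releases 3-hydroxyisobutyrate from coenzyme A, had signals of 4647, 10404 and 12551 in sedentary and 13431, 14981 and 17852 in exercised tissue. The groups did not overlap, and sedentary array 5 had less signal than any other. Hibch rose 1.59-fold (log2 difference 0.67, SE 0.18, adjusted p = 0.0368), and its other probe set differed by 0.69 (SE 0.19, adjusted p = 0.0542). Without sedentary array 5 the difference was 0.50 (SE 0.09, adjusted p = 0.00473). The call ended when any of sedentary arrays 1, 3 and 4 or exercised arrays 1, 3, 5, 6 and 7 was left out, at differences from 0.64 to 0.69 and adjusted p from 0.0552 to 0.0796.

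Hibadh, which oxidises 3-hydroxyisobutyrate, had signals of 13405, 20239 and 23921 in sedentary and 24361, 26488 and 31769 in exercised tissue. The groups did not overlap on the main probe set, although the highest sedentary and the lowest exercised array were close. On the other probe set they overlapped, with exercised array 6 (13013) below sedentary array 7 (15260). Hibadh rose 1.36-fold (log2 difference 0.45, SE 0.11, adjusted p = 0.0345), and its other probe set differed by 0.45 (SE 0.14, adjusted p = 0.0897). It rose by 0.35 (SE 0.08, adjusted p = 0.0163) without sedentary array 5. Leaving out any of sedentary arrays 1, 3 and 4 or exercised arrays 1, 3, 5 and 7 ended the call (0.41 to 0.45, adjusted p from 0.0562 to 0.076).

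Aldh6a1, the dehydrogenase that turns methylmalonate semialdehyde into propionyl-CoA, had signals of 13435, 27882 and 36623 in sedentary and 34189, 35608 and 41096 in exercised tissue. The exercised arrays lay close together, and sedentary array 7 reached their range while sedentary array 5 had the lowest signal. The log2 difference was 0.50 (SE 0.16, adjusted p = 0.0839, interval 0.16 to 0.84), which did not pass. Without sedentary array 5 the difference of Aldh6a1 was smaller and passed (0.34, SE 0.08, adjusted p = 0.0266), and it also passed without sedentary array 7 (0.58, adjusted p = 0.0355).

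The stretches of genome just before the start of Ivd, Hibch, Hibadh and Bckdha are shown so that their sequences can be set side by side. These are the 4 enzymes that rose with no overlap between groups on their main probe sets. The stretches come from RefSeq (build GRCm38.p6), which matched 9 of the 10 genes with 13 windows (Dbt has no entry in the table). They are written in the direction of transcription and stop before the first annotated base of the gene. Capitals mark CCAAT on either strand (ATTGG where it lies on the other). The Ivd stretch is chr2:118861744-118861958 (+ strand), that of Hibch chr1:52844788-52845037 (+ strand), that of Hibadh chr6:52640301-52640550 (- strand) and that of Bckdha chr7:25658783-25659011 (- strand).
Ivd: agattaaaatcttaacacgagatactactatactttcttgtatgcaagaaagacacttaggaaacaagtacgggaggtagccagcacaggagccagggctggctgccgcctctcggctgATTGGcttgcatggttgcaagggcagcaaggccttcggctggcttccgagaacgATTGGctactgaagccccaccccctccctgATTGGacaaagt
Hibch: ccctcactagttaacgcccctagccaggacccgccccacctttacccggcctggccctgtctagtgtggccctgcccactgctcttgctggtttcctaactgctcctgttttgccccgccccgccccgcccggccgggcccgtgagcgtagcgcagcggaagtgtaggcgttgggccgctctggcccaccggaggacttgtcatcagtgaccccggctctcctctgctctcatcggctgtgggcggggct
Hibadh: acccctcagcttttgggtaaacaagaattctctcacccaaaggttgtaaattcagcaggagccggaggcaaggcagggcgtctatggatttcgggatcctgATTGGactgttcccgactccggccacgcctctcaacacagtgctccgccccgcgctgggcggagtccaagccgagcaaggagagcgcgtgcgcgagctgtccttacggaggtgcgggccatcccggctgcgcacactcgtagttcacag
Bckdha: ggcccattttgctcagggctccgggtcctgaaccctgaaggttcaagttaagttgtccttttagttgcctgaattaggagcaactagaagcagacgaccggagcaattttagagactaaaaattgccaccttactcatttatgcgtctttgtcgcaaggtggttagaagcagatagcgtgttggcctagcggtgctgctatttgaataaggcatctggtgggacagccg

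In the 250 bases before the start, CCAAT was found 4 times in Ivd and 4 times in Aldh6a1 (at its first listed start), where 33.8% of all 32851 windows of this length held it at least once and 2.79% held it 3 times or more. Of the 4 matches in Ivd, 3 are in the stretch shown. Bckdhb held 2 CCAAT matches, Bcat1, Bckdk and Hibadh 1 each, and none were found in the windows of Bcat2, Bckdha and Hibch. The motif AAGGTCA, which 4.08% of all windows held on either strand, was in none of the 13 windows of these genes. These motifs were searched on both strands and share no overlap in the windows of these genes, since the second was not found. The motifs were chosen after these windows had been seen, so the shares over all windows are given for description and are no test. A match is a description of letters in this window and says nothing on binding.

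Among the other genes of the route, 12 of 22 tested had an unadjusted p under 0.05 (limma), all of them higher, against 11.3% of all genes. At an adjusted p under 0.05, 3 of the 22 rose, against 4% of all genes, and 0 fell. Besides Dld these were Acat1, the mitochondrial thiolase that ends isoleucine breakdown (log2 difference 0.52, SE 0.13, adjusted p = 0.0257), and Mmut, the mutase that passes propionyl-CoA carbon to the tricarboxylic acid cycle (0.46, SE 0.12, adjusted p = 0.0358). Acat1 went from 17424 ± 3375 to 24695 ± 2592 and Mmut from 7636 ± 1420 to 10377 ± 651 (SD, n = 7 each). The groups did not overlap on the main probe set of Mmut. Another Mmut probe set, with a mean signal of 8944, differed by 0.43 (SE 0.16, adjusted p = 0.158). There the groups overlapped, with sedentary array 2 (9609) above exercised array 2 (8569). The call of Mmut also ended with the mean of its probe sets. Leaving out sedentary array 5 gave 0.42 for Acat1 (SE 0.09, adjusted p = 0.0119) and 0.35 for Mmut (SE 0.06, adjusted p = 0.00447). The median log2 difference over the 22 genes was 0.33, and 0.20 without that array. The count was 6 without sedentary array 5, 5 without sedentary array 7, 2 without sedentary array 6 or exercised array 4, and 1 without exercised array 1, 3, 5 or 7. The call of Acat1 ended without sedentary array 4 or exercised array 1, 3, 5 or 7 (0.50 to 0.51, adjusted p from 0.05002 to 0.058), and that of Mmut without sedentary array 6 or exercised array 1, 3, 4, 5 or 7 (0.44 to 0.47, adjusted p from 0.0547 to 0.0747).

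All 14 distal genes tested had positive differences on their main probe sets with all 14 arrays, from 0.12 to 0.58. Another probe set of a distal gene, above the filter, differed by -0.005. With sedentary array 5 left out, a distal gene had a sedentary mean signal of 953.0, above its exercised mean of 927.8. Of the transporters 0 of 5 passed with limma, and 2 had an unadjusted p under 0.05, both higher (11.3% of all genes were). Slc25a44, the carrier that brings these amino acids into mitochondria, differed by 0.39 (SE 0.12, adjusted p = 0.0791), with other probe sets at 0.00 and 0.18. Slc7a5, a plasma membrane transporter, lay under the filter. Klf15, a transcription factor known to promote breakdown of these amino acids, had signals of 996.3, 2886 and 3234 in sedentary and 3108, 3853 and 5280 in exercised tissue. The low value was on sedentary array 5. The log2 difference of Klf15 was 0.66 (SE 0.21, adjusted p = 0.0873), and without that array it was 0.45 (SE 0.11, adjusted p = 0.0286).

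Beside the tricarboxylic acid cycle, the next stage of carbon oxidation in mitochondria, the breakdown enzymes had the smaller median. All 15 cycle genes tested rose (4% of all genes did), with a median log2 difference of 0.64 and a range from 0.45 to 0.94. Of the breakdown enzymes 5 of 10 rose, with a median of 0.50. The difference between the 2 groups of genes was not tested. On sedentary array 5 the mean log2 level of the 15 cycle genes was 13.26, below the other sedentary arrays (13.65 to 13.93), and that of the 10 enzymes was 11.97, likewise below the others (12.43 to 12.74).

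**Figure D3:**
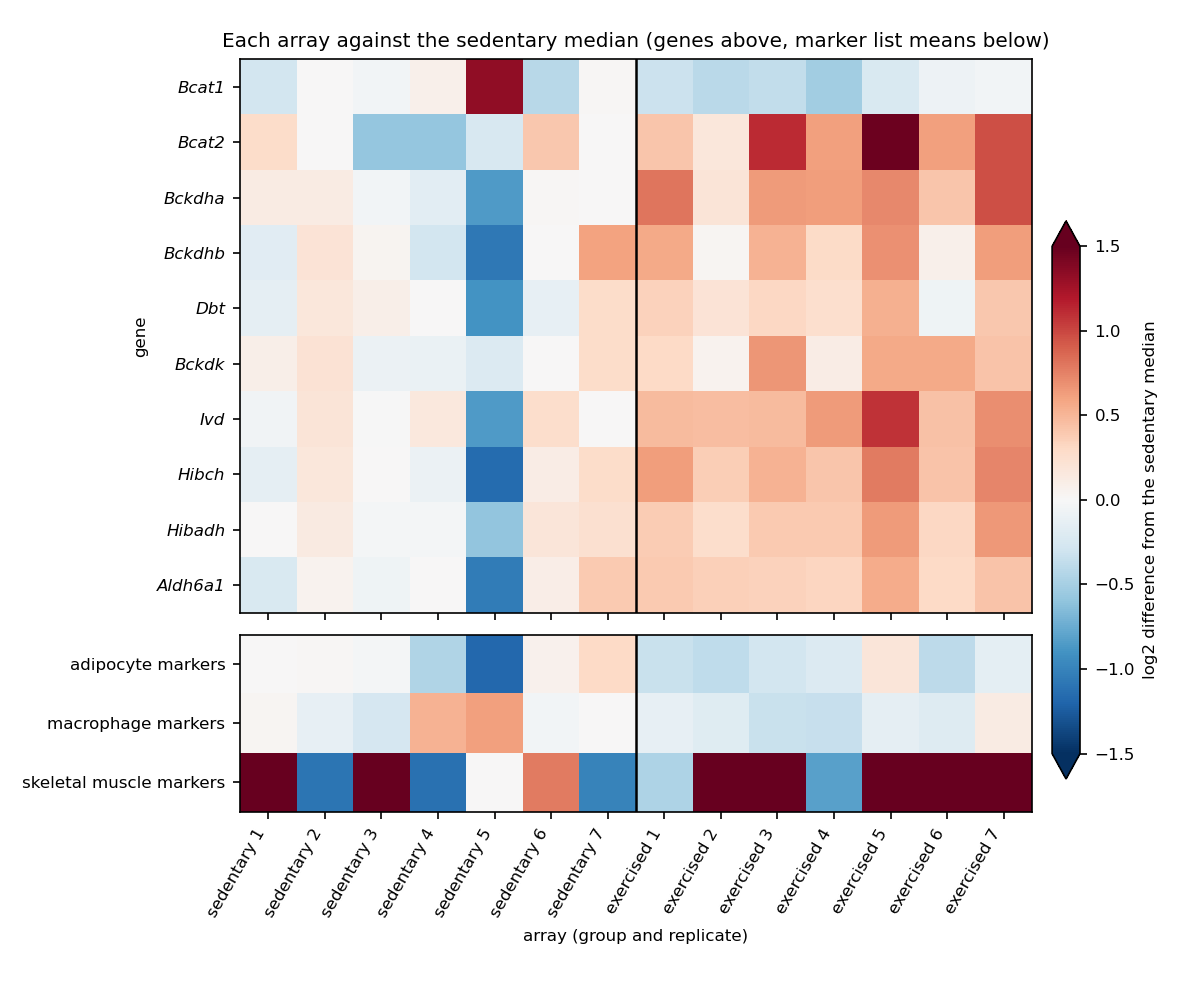
Log2 difference of each array from the sedentary median for the 10 enzymes (upper panel) and for the mean of 3 marker lists (lower panel), with red above and blue below the median and the colour scale ending at 1.5 either way, so that muscle values beyond it share 1 colour. Sedentary array 5 is blue in 9 enzymes and in the adipocyte markers and red in Bcat1 and the macrophage markers.

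Exercised array 5 had the highest signal of all 14 arrays in 6 of the 10 enzymes (Bcat2, Bckdhb, Dbt, Ivd, Hibch and Aldh6a1), and exercised array 2 was the lowest of the exercised arrays in 6. Sedentary array 7 was the highest sedentary array in 6. For the muscle markers, exercised array 5 had a mean of 12.54 and exercised array 2 one of 14.78. Exercised arrays 1 and 4, at 9.0 and 8.65, had Bckdha signals of 12224 and 10805 and Bckdk signals of 3466 and 3027. Exercised arrays 3 and 6, at 15.46 and 15.56, had Bckdha signals of 10880 and 9336 and Bckdk signals of 4476 and 4179. Exercised arrays 2 and 7, at 14.78 and 14.41, had Bckdha signals of 8005 and 13640 and Bckdk signals of 2901 and 3772. The part of the muscle markers in these values was not tested. Exercised array 5 had the highest adipocyte marker mean of the exercised arrays (14.90), and array 2 the lowest brown and beige marker mean of them (11.91). The mean log2 level of 6 lymphocyte markers, of which 0 passed the test with limma (0 also at an unadjusted p under 0.05), ran the other way. It was lowest on exercised array 5 (8.59), sedentary array 7 (8.81) and exercised array 7 (9.78), lay between 11.44 and 12.93 on the other arrays, and was highest on sedentary array 5. Exercised array 7 was the highest exercised array for Bcat1, Bckdha and Hibadh. The part of the lymphocyte markers in the enzyme levels was not tested.

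With the muscle marker mean as a covariate the differences were of similar size, from 0.31 for Bckdk to 0.84 for Bcat2 among the 9 positive ones, but 1 of 10 passed (Bckdha, 0.77, SE 0.18, adjusted p = 0.0437), and 230 genes passed in all. The ratio of the 3' to the 5' control probe set of Gapdh, a measure of RNA integrity, ran from -0.53 to -0.33 on the log2 scale in sedentary and from -0.49 to -0.34 in exercised tissue. With it as a covariate 2 of 10 passed, Bckdha (0.76, adjusted p = 0.027) and Ivd (0.73, adjusted p = 0.0324). Quantile normalisation left 3 of 10, with Hibch at 0.62 (adjusted p = 0.0521) and Hibadh at 0.34 (adjusted p = 0.0861).

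**Figure D4:**
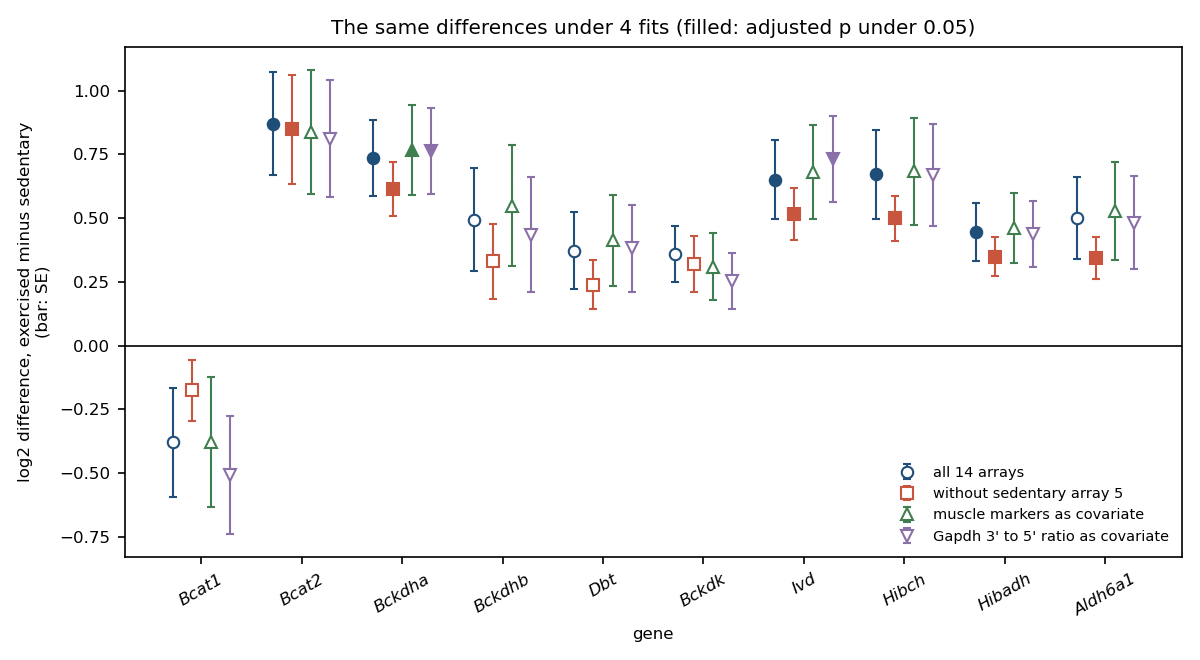
Log2 difference (exercised minus sedentary, with its SE) of the 10 enzymes with all 14 arrays, without sedentary array 5, with the muscle marker mean as a covariate and with the Gapdh 3' to 5' ratio as a covariate; filled symbols passed an adjusted p of 0.05. Every enzyme keeps its side of 0 under these 4 fits, and Bckdha is filled in all of them.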

How the data were processed

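Biotin-labelled cRNA from frozen fat was hybridised to Affymetrix arrays (labels' protocols). The values that the authors deposited are intensity on a linear scale from MAS5, per the submitters' processing notes, for 45101 probe sets on 14 arrays, and the trimmed mean was 1500 on each. Its version and settings: not given in the sources used here. Such scaling removes differences in total RNA.

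Groups and replicate numbers came from the labels. Values were taken as log2(signal + 46.7), the 10th percentile of all values, so folds understate changes of weak genes. Genes with a mean signal of at least 389.7, the 40th percentile, were kept. Symbols were updated by Entrez identifier to GRCm38.p6 names (34741 of 34945 probe sets with 1 symbol; 932 had several and 9160 none). The 10 enzymes had 16 probe sets, 15 above the filter; probe sets ending in _s_at or _x_at can match several transcripts.

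A linear model with a variance trend (limma 3.58.1, R 4.3.3) was run on all 12945 genes, two-sided, with Benjamini-Hochberg adjustment and a threshold of 0.05. Intervals are 95% and not adjusted. Other probe sets were tested with all 27026 probe sets. On simulated data with 200 changed genes of 12945, the fit recovered 37% of those changed by 0.5 (log2) and 80% of those changed by 1, and 3.31% of calls were false. Named were all 10 enzymes, Dld, Ppm1k, Slc25a44 and Klf15, and up to 8 other pathway genes past the threshold. Slc7a5 lay under the filter. The enzymes and lists were chosen with earlier results of these data known. Motifs were chosen after the promoter windows had been seen. Alternatives covered scaling, pseudocount, filter, probe set rule, variance model, array weights, covariates, the replicate number and left-out arrays.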

Additional observations from a re-analysis of the deposited data

Results flagged for a closer look

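Sedentary array 5 stood away from the other 6 sedentary arrays in 11 of the 12 cases in which 1 array was far from its group. These were found among 32 groups of 7 values examined. Chance gives such a gap in about 1 of 20 groups where groups are independent. The 32 groups share the same 14 arrays and are not, so that rate is no test of their count. Sedentary array 5 was the lowest of its group for Bckdha (signal 3843), Dbt (2999), Ivd (3649), Hibch (4647), Hibadh (13404.7) and Aldh6a1 (13434.9). Among the other pathway genes it was the lowest for Dld (5406), Klf15 (996.3), Acat1 (11027.3) and Mmut (4578). It was the highest for Bcat1 (1806). The same array had the lowest adipocyte marker mean and the highest macrophage marker mean, 13.54 and 13.01, and their part in these values was not tested. The remaining case was Ivd on exercised array 5 (14097.9), the highest of the exercised arrays.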

How the results depend on the processing

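Each of the 10 enzymes kept its direction in all alternatives in which it was tested, and 0 were called lower in any. These fits used the main probe set or the mean of the probe sets. The block, filter, variance trend and all-probe-set fits leave the difference itself unchanged, so they could not turn a direction. Taken alone, the other Bcat1 probe set above the filter had the opposite sign (0.05). The number that rose, 5 of 10 with all arrays, was 3 with quantile normalisation, 1 with the muscle covariate, 2 with the Gapdh covariate and 0 with the replicate number as a block, and ranged from 1 (without exercised array 7) to 7 (without sedentary array 7) when 1 array was left out. For the other pathway genes, 3 of 22, it was 1 with quantile normalisation, 6 with array weights, 0 with the replicate block, 7 without sedentary arrays 5 and 7 together and 1 to 6 with 1 array left out. For the tricarboxylic acid cycle, 15 of 15, it was 4 with the replicate block and 14 to 15 with 1 array left out. Over all genes, 716, it was 161 with the replicate block, 230 with the muscle covariate, 396 with the Gapdh covariate and 402 to 853 with 1 array left out, from 402 to 477 without exercised array 1, 3, 5, 6 or 7. The block and covariate fits have fewer residual degrees of freedom, and the cause of these changes was not tested. The labels do not say whether replicate numbers pair the samples. Same-numbered deviations correlated from -0.43 to 0.38, and 1 of 7 sedentary arrays correlated best with its own number. These correlations do not settle whether the samples were paired. Bcat1 could not be tested under the stricter filter on low signal.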
